A study of Homo sapiens with 6 samples.

Results

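Potassium channel genes were followed in NCI-H1299 cells, a human non-small-cell lung carcinoma line, after stable knockdown of Ephexin1. Ephexin1, encoded by NGEF, is a guanine nucleotide exchange factor for small GTPases. The genes were chosen by symbol alone, as every row of the expression table whose name is KCN, 1 or more further capital letters and then a number with nothing after it. The rule took 95 of the 26255 rows and left 18 other names that start with KCN outside it. Expression was measured by RNA-seq of total RNA in 6 libraries, and each value is an FPKM, the fragments per kilobase of transcript, scaled to the mapped fragments of the library. The 3 shControl libraries came from cells that carried a pSilencer2.1-U6 plasmid with a control shRNA, and the 3 shEphexin1 libraries from cells that carried the same plasmid type with an Ephexin1 shRNA. All 6 cultures were grown in RPMI-1640 with serum and were not otherwise treated as far as the labels say. The shEphexin1 labels share 1 stem, so the 3 libraries may be repeats of 1 stably transfected line, and p-values then measure only the spread between these libraries.

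Potassium channels let potassium ions cross membranes down their electrochemical gradient, and so set the resting potential and end electrical excitation. Voltage-gated channels open when the membrane depolarizes, calcium-activated channels when intracellular calcium rises, and inward rectifiers pass current more easily into the cell than out of it. Tandem-pore (K2P) channels carry background leak currents, while auxiliary subunits change how the pore-forming subunits open or reach the cell surface. In epithelial tumour cells these channels are best known for their part in cell volume, calcium entry, migration and division.

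The knockdown target itself was read first. NGEF (chromosome 2, 233743411 to 233877966, minus strand, GRCh37) stood at 13.3, 11.7 and 16.4 FPKM in shControl replicates 1, 2 and 3, and at 9.81, 8.25 and 10.5 FPKM in shEphexin1 replicates 1, 2 and 3. Every shEphexin1 library was under every shControl library, and the group mean was 68.9% of control. The log2 fold change was -0.53 and did not pass the test (limma adjusted p = 0.103). These values are RNA alone, while the study checked its stable knockdown cells for Ephexin1 protein by western blot. The carcinoma line's markers VIM, KRT8 and KRT18 were present in all libraries, with VIM at 1979 to 2670 FPKM. KRT8 was at 5.13 to 8.44 FPKM in the control libraries and 2.65 to 3.48 FPKM in the knockdown libraries, and KRT18 at 67.6 to 109 and 36.3 to 54.7 FPKM, neither called (adjusted p = 0.0304 and 0.0439). Of 5 neuron markers 2 passed the filter on low values, with a summed level of 3.96 to 5.69 FPKM in the control libraries and 4.53 to 6.93 FPKM in the knockdown libraries, most of it SYT1, and STMN2 at 0 in 5 of the 6 libraries. Of 4 leukocyte markers 3 were listed at 0 throughout, PTPRC and CD3E among them. The summed levels of the 5 muscle and 3 endothelial markers reached at most 0.373 and 0.577 FPKM, and that of the 4 fibroblast markers at most 0.861 FPKM. The part of these movements in the results below was not tested, and in such bulk RNA fewer cells of a type and less RNA per cell cannot be told apart. Replicate 2 of both groups stood apart from the other 4 libraries. Across genes its log2 deviations from the group mean fell with GC content (Spearman correlations of -0.688 and -0.759 over 15204 genes). For the deviations of the other libraries the correlation was 0.336 to 0.664. Deviations within a group cancel out, so these correlations are not independent of each other. Results are therefore also given for replicates 1 and 3 alone.

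Fewer than 1 in 2 of the potassium channel genes were expressed. A gene was tested if it reached 0.1 FPKM in at least 3 of the 6 libraries, and 46 of the 95 did so, 36 of them in all 6 libraries. Of the 49 others, 22 were listed at 0 in every library and 42 stayed under 0.1 FPKM throughout, and no value among the 49 exceeded 0.457 FPKM (KCNJ18, whose near-identical copy KCNJ12 may share its reads). The 3 genes just inside the filter were KCND2 with a mean of 0.0997 FPKM, KCNE2 with 0.144 FPKM and KCNH4 with 0.0836 FPKM. The 3 just outside were KCNE5 with 0.103 FPKM, KCNH2 with 0.0860 FPKM and KCNJ15 with 0.101 FPKM. Members of every class were detected: 20 of 40 voltage-gated genes, 4 of 8 calcium- or sodium-activated genes, 6 of 16 inward rectifiers, 6 of 15 K2P genes and 10 of 16 auxiliary genes passed. Most of the tested genes were low, with 28 averaging under 1 FPKM, 15 between 1 and 10 FPKM and 3 at 10 FPKM or more.

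**Figure D1:**
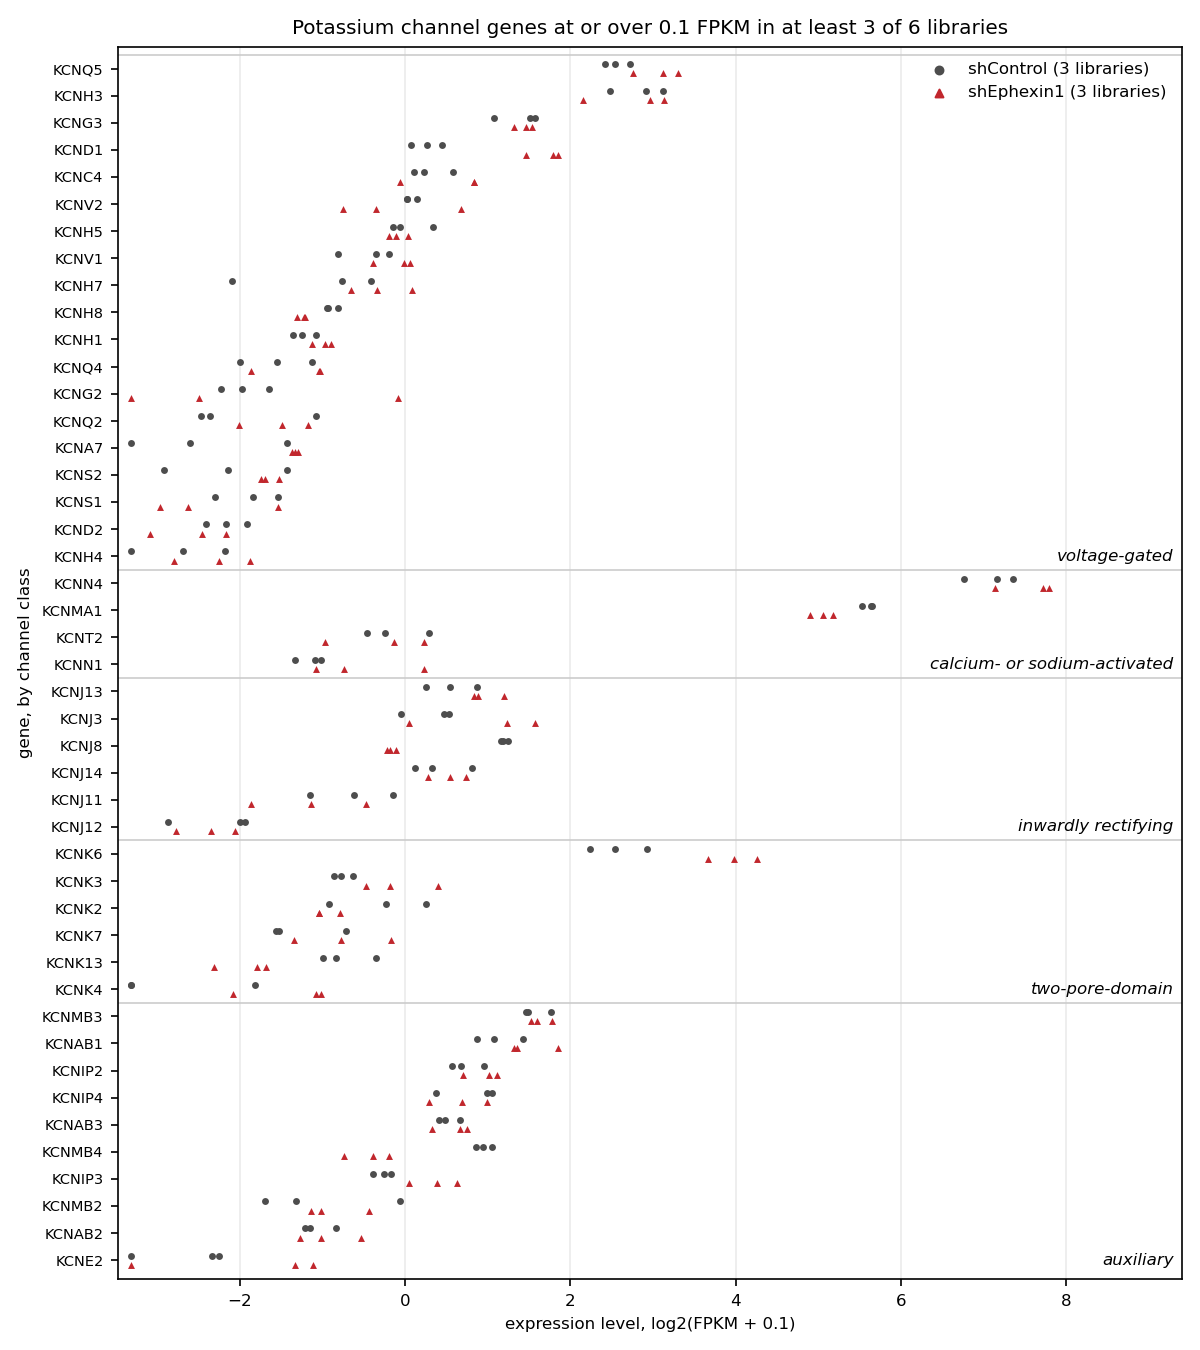
Expression level of 45 of the 46 tested potassium channel genes, by channel class, as log2(FPKM + 0.1) on the horizontal axis, with a circle for each of the 3 shControl libraries and a triangle for each of the 3 shEphexin1 libraries. KCNN4 lies far to the right of all other genes. KCNMA1 comes next, with its lowest library at 29.7 FPKM beside 19.1 FPKM for the highest KCNK6 library. The groups separate for the called genes KCND1, KCNJ8, KCNK6 and KCNMB4, and also for some genes that were not called, such as KCNMA1 and KCNQ5.

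Between groups, 2 potassium channel genes rose and 2 fell. KCNK6, a K2P leak channel, and KCND1, a pore-forming subunit of rapidly inactivating A-type voltage-gated channels, were higher after Ephexin1 knockdown. KCNJ8, the pore of an ATP-sensitive inward rectifier, and KCNMB4, a beta subunit of the large-conductance calcium-activated (BK) channel, were lower. A gene was called at a limma adjusted p of at most 0.025 over the 16020 genes tested together with at least a 2-fold change on the log2(FPKM + 0.1) scale, which understates the change of low genes. The 2 genes called higher were 4.35% of the 46 tested members, beside 0.893% of all genes tested, and the 2 called lower were 4.35% beside 0.999%. In either direction 4 of 46 (8.70%) were called, beside 1.89% of all genes. With so few called genes these shares are a count and not a property of the family. Leaving out shControl replicate 1, shEphexin1 replicate 1 or shEphexin1 replicate 3 left 0 called in both directions, shControl replicate 2 left 1 higher (KCND1) and 1 lower (KCNJ8), and shControl replicate 3 left 1 higher (KCNK6) and 0 lower.

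The 46 tested genes leaned upward in size but not in calls. Their log2 fold changes were above 0 for 30 and below 0 for 16, so 65.2% lay above 0, beside 48.9% of all genes tested. Their median was 0.22 on the log2 scale, beside -0.0093 over all genes tested. The genes compared were not matched to the members in level, and with a filter of 1 FPKM the median over all genes was -0.034. By class the median log2 fold change was 0.59 for the 6 K2P genes, 0.24 for the 20 voltage-gated genes, 0.15 for the 4 calcium- or sodium-activated genes, 0.14 for the 10 auxiliary genes and -0.013 for the 6 inward rectifiers. The median standard error of these estimates was 0.28 on the log2 scale, beside 0.19 over all genes tested. The 3 libraries of one group lay entirely on one side of the other group for 12 of the 46 (26.1%), 7 higher and 5 lower, beside 28.3% of all genes. At an unadjusted p of at most 0.05 there were 11 genes (23.9%), 7 higher and 4 lower, beside 23.3% of all genes. Of the 42 genes not called, 19 had a 95% interval that stayed within a 2-fold change either way, and 23 had one that reached past it.

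**Figure D2:**
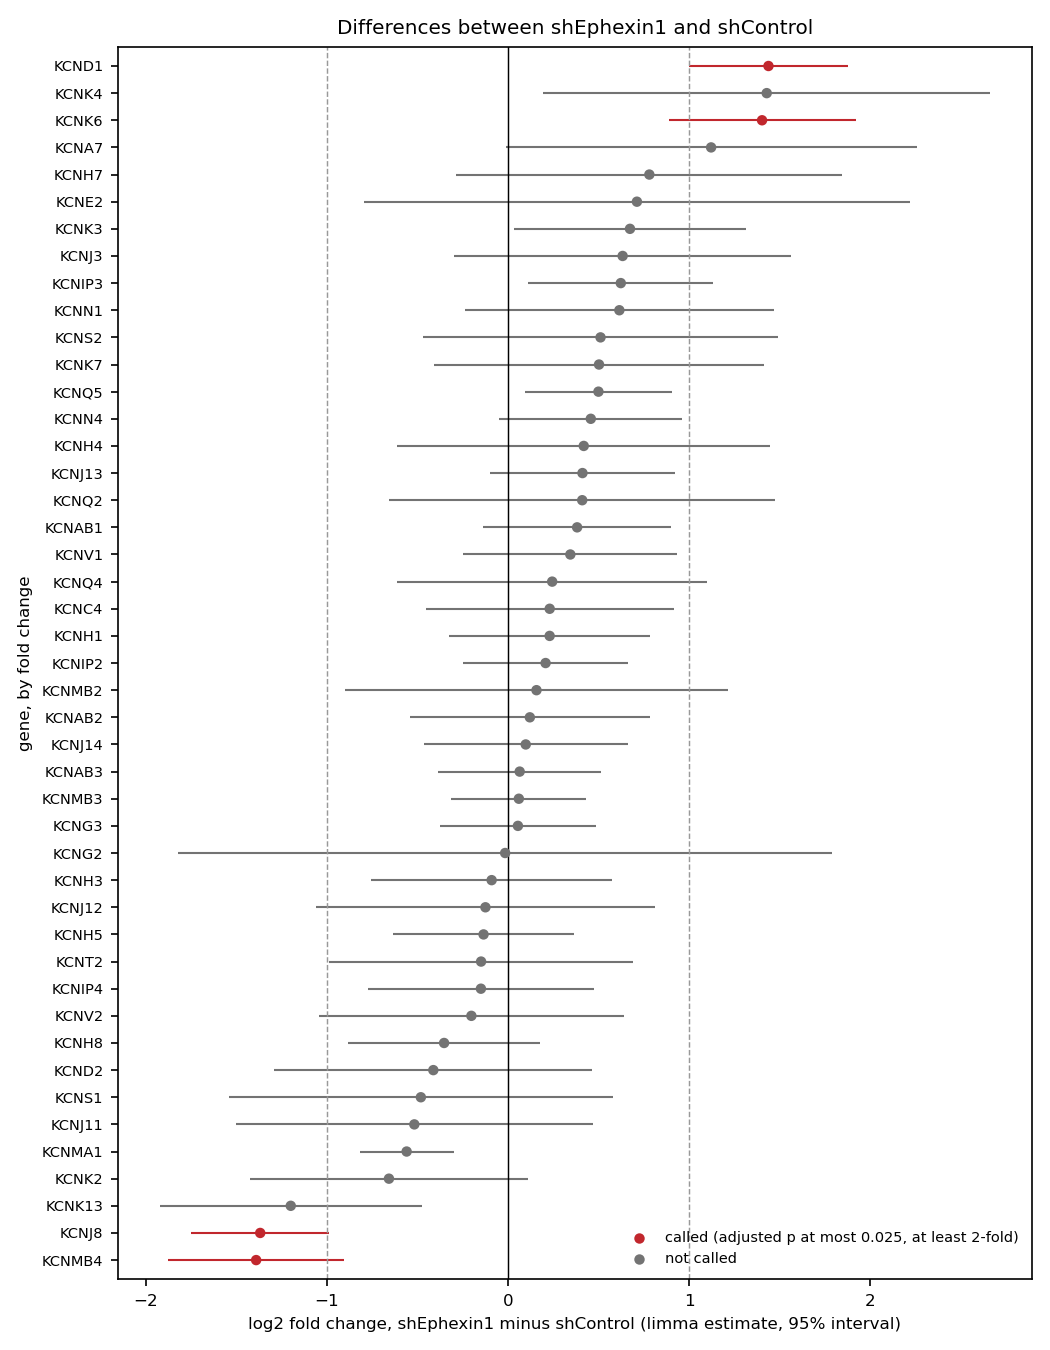
Log2 fold change of 45 of the 46 tested potassium channel genes, shEphexin1 minus shControl, ordered by size, as points with 95% intervals from the limma fit, with the called genes in red and dashed lines at a 2-fold change either way. KCND1 at 1.44 and KCNK6 at 1.40 stand at the top and KCNJ8 at -1.37 and KCNMB4 at -1.39 at the bottom, while KCNK4 at 1.43 has one of the widest intervals.

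The upstream sequences of the called genes are shown here because these genes were the ones called, and they let a reader see what lies before each start. They are the 250 bases before the RefSeq gene start, from a table made on GRCh38.p14, and each matched GRCh37 exactly once. The table held such a sequence for 3 of the 4 called genes. They are written 5′ to 3′ on the gene's own strand, with capitals marking matches to the GC box GGGCGG on either strand.
KCNK6 (chr19:38810235-38810484, plus strand): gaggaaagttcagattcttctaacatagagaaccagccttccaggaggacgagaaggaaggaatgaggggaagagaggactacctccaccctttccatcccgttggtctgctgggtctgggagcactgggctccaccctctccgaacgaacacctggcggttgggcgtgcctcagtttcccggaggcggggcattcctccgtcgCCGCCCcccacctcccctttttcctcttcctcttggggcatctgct
KCND1 (chrX:48828252-48828501, minus strand): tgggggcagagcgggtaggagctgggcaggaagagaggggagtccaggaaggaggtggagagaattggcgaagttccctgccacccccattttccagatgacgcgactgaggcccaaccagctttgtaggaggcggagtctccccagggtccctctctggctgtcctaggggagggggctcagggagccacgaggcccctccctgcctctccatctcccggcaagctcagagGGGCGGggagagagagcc
KCNJ8 (chr12:21927641-21927890, minus strand): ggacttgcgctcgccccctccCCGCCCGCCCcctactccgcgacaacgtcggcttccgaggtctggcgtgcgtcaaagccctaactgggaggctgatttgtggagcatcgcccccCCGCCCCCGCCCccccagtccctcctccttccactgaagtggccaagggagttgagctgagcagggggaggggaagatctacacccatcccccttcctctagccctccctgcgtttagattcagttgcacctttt
Their GC content was 59.6% for KCNK6, 65.6% for KCND1 and 64.8% for KCNJ8, beside a median of 58% over all promoters of the table and 64.4% over those of the genes tested. KCNK6 and KCND1 each held 1 GC box, and KCNJ8 held 4 matches, some overlapping. None of the 3 held, on either strand, the TATA box TATAAA, the cyclic AMP response element TGACGTCA, the AP-1 site TGANTCA or the ETS core CCGGAAG. Over the 27305 promoters of the table, 42.3% held the GC box, 11.1% the TATA box, 1.77% the cyclic AMP response element, 6.60% the AP-1 site and 8.82% the ETS core. Sequences were at hand for 34 tested members and 37 members under the filter. The GC box was in 24 of the 34 (70.6%), beside 64.0% of the promoters of all genes tested, and in 16 of the 37 (43.2%). These matches describe letters only, and no binding was measured. The KCNJ8 stretch lies inside the span GENCODE gives the gene, whose outermost start is further upstream.

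KCNK6 encodes TWIK-2, a K2P channel found on plasma and endolysosomal membranes. The gene (chromosome 19, 38810485 to 38822716, plus strand, GRCh37) stood at 5.70, 4.60 and 7.5 FPKM in shControl replicates 1, 2 and 3, and at 19.1, 12.6 and 15.6 FPKM in shEphexin1. The lowest shEphexin1 library was above the highest shControl library. Means were 5.93 ± 1.47 (SD, n = 3) and 15.8 ± 3.25 FPKM (SD, n = 3), and the log2 fold change was 1.40 with a standard error of 0.22 (limma adjusted p = 0.0152). Replicates 1 and 3 alone gave 1.39 (adjusted p = 0.0056). The call was lost when shControl replicate 1 (adjusted p = 0.0851), shControl replicate 2 (0.0350), shEphexin1 replicate 1 (0.0776) or shEphexin1 replicate 3 (0.0608) was left out, with the log2 fold change staying at 1.24 or more. It was also lost without an intensity trend in the variance model (adjusted p = 0.0264).

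The other K2P genes were near or below 1 FPKM. KCNK13 (THIK-1, a halothane-inhibited leak channel) was at 0.681, 0.402 and 0.460 FPKM in the control libraries and 0.101, 0.210 and 0.190 FPKM in the knockdown libraries. Its groups did not overlap and its mean was 32.5% of control, but it was not called (log2 fold change -1.20, standard error 0.31, limma adjusted p = 0.0633). KCNK3 (TASK-1, an acid-sensitive leak channel) was at 0.484, 0.451 and 0.544 FPKM and then 1.22, 0.620 and 0.783 FPKM. These groups did not overlap either, and the gene was not called (0.67, adjusted p = 0.197). KCNK4 (TRAAK, opened by membrane stretch and arachidonic acid) was listed at 0, 0.184 and 0 FPKM in shControl and was at 0.395, 0.137 and 0.374 FPKM in shEphexin1. The groups overlapped through replicate 2 of each, and the gene was not called (1.43, standard error 0.53, adjusted p = 0.160). With replicates 1 and 3 alone KCNK4 was called (adjusted p = 0.0203), against control libraries listed at 0. The summed FPKM of the 15 K2P genes was 6.98 to 9.18 in shControl and 14.4 to 22.2 in shEphexin1, most of it from KCNK6.

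KCND1 encodes Kv4.1, whose channels inactivate within moments of opening. The gene (chromosome X, 48818639 to 48828251, minus strand) was at 0.950, 1.26 and 1.1 FPKM in shControl replicates 1, 2 and 3, and at 3.50, 2.66 and 3.35 FPKM in shEphexin1. All shEphexin1 libraries were above all shControl libraries, with replicate 2 lowest of the 3. Means were 1.11 ± 0.156 (SD, n = 3) and 3.17 ± 0.447 FPKM (SD, n = 3), and the log2 fold change was 1.44 with a standard error of 0.19 (limma adjusted p = 0.00828). Replicates 1 and 3 alone gave 1.65 (adjusted p = 0.0048). The call was lost without shControl replicate 1 (adjusted p = 0.0541), shControl replicate 3 (0.0370), shEphexin1 replicate 1 (0.0561) or shEphexin1 replicate 3 (0.0413), the log2 fold change staying at 1.34 or more. With a pseudocount of 1 FPKM it was 0.98, just under 2-fold.

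No other voltage-gated gene was called. KCNQ5 (Kv7.5, which carries a slow M-type current) was at 5.26, 6.5 and 5.70 FPKM in the control libraries and 8.60, 9.75 and 6.68 FPKM in the knockdown libraries. Its groups did not overlap, and it was not called (0.50, limma adjusted p = 0.138). The antisense gene KCNQ5-AS1, which shares exonic bases with it on the other strand, was at 0.0851 to 0.663 FPKM and 0.803 to 1.02 FPKM. How reads were assigned by strand is not given in the sources used here. KCNH3 (Kv12.2, an ether-a-go-go family channel) averaged 7.18 ± 1.58 (SD, n = 3) and 6.90 ± 2.27 FPKM (SD, n = 3). KCNG3, a subunit that forms channels only together with other voltage-gated subunits, averaged 2.54 ± 0.468 and 2.62 ± 0.210 FPKM (SD, n = 3 each). Both overlapped between groups, with 95% intervals of the log2 difference from -0.76 to 0.58 for KCNH3 and from -0.38 to 0.49 for KCNG3. Chosen after their values were seen, KCNA7 and KCNH8 were further voltage-gated genes whose groups did not overlap, with log2 fold changes of 1.12 (adjusted p = 0.220) and -0.35 (adjusted p = 0.408).

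KCNJ8 encodes Kir6.1, the pore of vascular-type ATP-sensitive potassium channels, which open when cellular ATP falls. The gene (chromosome 12, 21917889 to 21928534, minus strand) stood at 2.17, 2.14 and 2.28 FPKM in shControl replicates 1, 2 and 3, and at 0.783, 0.757 and 0.828 FPKM in shEphexin1. The groups were far apart beside their spread. Means were 2.2 ± 0.0730 (SD, n = 3) and 0.789 ± 0.0357 FPKM (SD, n = 3), or 35.9% of control, and the log2 fold change was -1.37 with a standard error of 0.16 (limma adjusted p = 0.00603). An exact two-sided permutation test gave p = 0.1, the smallest that 3 libraries against 3 can give. KCNJ8 is among genes that the study displayed for their decrease in these same libraries, so its direction here is not independent evidence. Replicates 1 and 3 alone gave -1.36 (adjusted p = 0.0091). The call was lost without shControl replicate 1 (adjusted p = 0.050), shControl replicate 3 (0.0345), shEphexin1 replicate 1 (0.0409) or shEphexin1 replicate 3 (0.0275), the log2 fold change lying between -1.40 and -1.34. With a pseudocount of 1 FPKM it was -0.84. A lncRNA, ENSG00000255644, overlaps 268 exonic bases of KCNJ8 on the opposite strand.

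None of the partners of Kir6.1 was called. ATP-sensitive channels pair Kir6 pores with sulfonylurea receptors, encoded by ABCC8 and ABCC9. ABCC9 (SUR2) lies upstream of KCNJ8 on the same strand, with 21788 bases between the spans of the genes. It was at 11.3, 17.3 and 10.4 FPKM in the control libraries and 15.7, 19.8 and 14.5 FPKM in the knockdown libraries. Its groups overlapped, and its log2 fold change was 0.38 (limma adjusted p = 0.353), with a 95% interval from -0.13 to 0.88 that excludes a fall of the size seen for KCNJ8. ABCC8 was listed at 0 in all libraries. KCNJ11 (Kir6.2, the other pore) averaged 0.567 ± 0.226 and 0.383 ± 0.224 FPKM (SD, n = 3 each) and overlapped between groups (adjusted p = 0.526). Per library the ratio of KCNJ11 to KCNJ8 was 0.164 to 0.352 in shControl and 0.231 to 0.749 in shEphexin1, so these ranges overlapped. None of the other 4 tested inward rectifiers, KCNJ3, KCNJ12, KCNJ13 and KCNJ14, was called, and their log2 fold changes were -0.12 to 0.63.

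KCNMB4 encodes the beta-4 subunit of the BK channel, best known from neurons, where it slows the channel's gating. The gene (chromosome 12, 70760070 to 70828072, plus strand) was at 1.72, 1.97 and 1.82 FPKM in shControl replicates 1, 2 and 3, and at 0.663, 0.50 and 0.772 FPKM in shEphexin1. Every shEphexin1 library was under every shControl library. Means were 1.84 ± 0.126 (SD, n = 3) and 0.645 ± 0.137 FPKM (SD, n = 3), or 35.2% of control, and the log2 fold change was -1.39 with a standard error of 0.21 (limma adjusted p = 0.0129). Replicates 1 and 3 alone gave -1.20 (adjusted p = 0.0167). The call stood without shEphexin1 replicate 2 and was lost without any other library, at adjusted p = 0.0742, 0.0401 and 0.0553 without shControl replicates 1, 2 and 3, and 0.0665 and 0.0328 without shEphexin1 replicates 1 and 3. The log2 fold change then lay between -1.51 and -1.34, and with a pseudocount of 1 FPKM it was -0.79.

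The BK pore and its other tested beta subunits were not called. KCNMA1, the only BK pore gene, was at 49.7, 46.2 and 50.1 FPKM in the control libraries and 36.2, 29.7 and 33.2 FPKM in the knockdown libraries. All shEphexin1 libraries were lower, at 67.9% of the control mean, with a log2 fold change of -0.56 and a standard error of 0.11 (limma adjusted p = 0.0312), which missed both thresholds of a call. With replicates 1 and 3 alone it was -0.52 (adjusted p = 0.0107), again under 2-fold. KCNMB3 (beta-3) averaged 2.89 ± 0.363 and 3.01 ± 0.282 FPKM (SD, n = 3 each), with a 95% interval of the log2 difference from -0.31 to 0.43. KCNMB2 (beta-2), low and variable at 0.209 to 0.859 FPKM over the 6 libraries, had a wide interval from -0.90 to 1.21. KCNMB3 shares exonic bases on the opposite strand with PIK3CA, at 10.2 to 14.1 FPKM in all libraries. Per library, KCNMA1 was 23.5 to 28.9 times KCNMB4 in shControl and 43.0 to 59.4 times in shEphexin1, and 14 to 18.9 and 8.94 to 12.4 times KCNMB3. Neither pair of ranges overlapped, and both are FPKM ratios that describe RNA and not assembled channels. Of the gamma-type partners of BK, LRRC38, LRRC52 and LRRC55 were listed at 0 throughout, and LRRC26 was listed at 0 in 3 libraries and reached at most 0.780 FPKM.

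KCNN4 was the most abundant potassium channel transcript in every library. It encodes the intermediate-conductance calcium-activated channel KCa3.1, known from lymphocytes, red cells and many carcinoma cells. It was at 143, 109 and 164 FPKM in shControl replicates 1, 2 and 3, and at 211, 141 and 222 FPKM in shEphexin1. Within each group replicate 2 was lowest, and the groups overlapped. The log2 fold change of 0.46 (standard error 0.22) was not called (limma adjusted p = 0.258). With replicates 1 and 3 alone it was 0.50 with adjusted p = 0.0156, under 2-fold. KCNN4 held 52.2% to 61.2% of the members' summed FPKM in shControl and 60.4% to 68.3% in shEphexin1, while KCNMA1 held 18.7% to 22.2% and 10.2% to 12.7%. Per library the ratio of KCNN4 to KCNMA1 was 2.35 to 3.27 in shControl and 4.74 to 6.69 in shEphexin1, without overlap. Without KCNN4 the members summed to 102 ± 2.37 FPKM with the control shRNA and 103 ± 10.3 FPKM with the Ephexin1 shRNA (SD, n = 3 each).

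Among the auxiliary subunits of voltage-gated channels none was called. KCNIP3 (calsenilin, a calcium-binding partner of Kv4 channels) was at 0.792, 0.666 and 0.737 FPKM in the control libraries and 1.21, 0.936 and 1.44 FPKM in the knockdown libraries. Its groups did not overlap, and it was not called (0.62, limma adjusted p = 0.143). KCNIP2, another Kv4 partner, averaged 1.57 ± 0.237 and 1.83 ± 0.277 FPKM (SD, n = 3 each) and overlapped between groups. The accessory Kv4 partners DPP6 and DPP10 were listed at 0 in all libraries. KCNAB1, a cytoplasmic beta subunit of Kv1 channels, averaged 2.10 ± 0.436 and 2.78 ± 0.621 FPKM (SD, n = 3 each), also overlapping (adjusted p = 0.361).

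The fallen genes had lower surroundings than the risen genes, and so did some genes that were not called. KCNJ8 and KCNMB4 are both on chromosome 12, which holds 7 of the potassium channel genes, 3 of them tested. Among the 24 tested genes within 5 Mb of KCNJ8 the median log2 fold change was -0.66, and 20 were below 0. None of these neighbours reached both thresholds of a call, though 3 that were lower passed the adjusted p threshold alone, and none was as low as KCNJ8, whose fold change was -0.71 after that median was taken off. Around KCNMB4 the median of 38 tested genes was -0.34, 33 were below 0, 2 of them passed the adjusted p threshold and 1 was called lower, and KCNMB4 stood at -1.05 beyond it. Around KCNK6 the median of 206 tested genes was 0.019, with 4 called higher and 4 at least as high as KCNK6. Around KCND1 the median of 76 tested genes was -0.0058, with none called and none as high as KCND1. For KCNH3, the other tested member on chromosome 12, the median of 133 tested genes was -0.22, and its own log2 fold change was -0.09. For KCNIP4, not called, the median of 20 tested genes was -0.37, and its own log2 fold change was -0.15. Whether these neighbourhood levels had a part in the results for KCNJ8 and KCNMB4 was not tested, and a shift of a chromosome segment in a stably selected line and the knockdown cannot be told apart with this design.

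**Figure D3:**
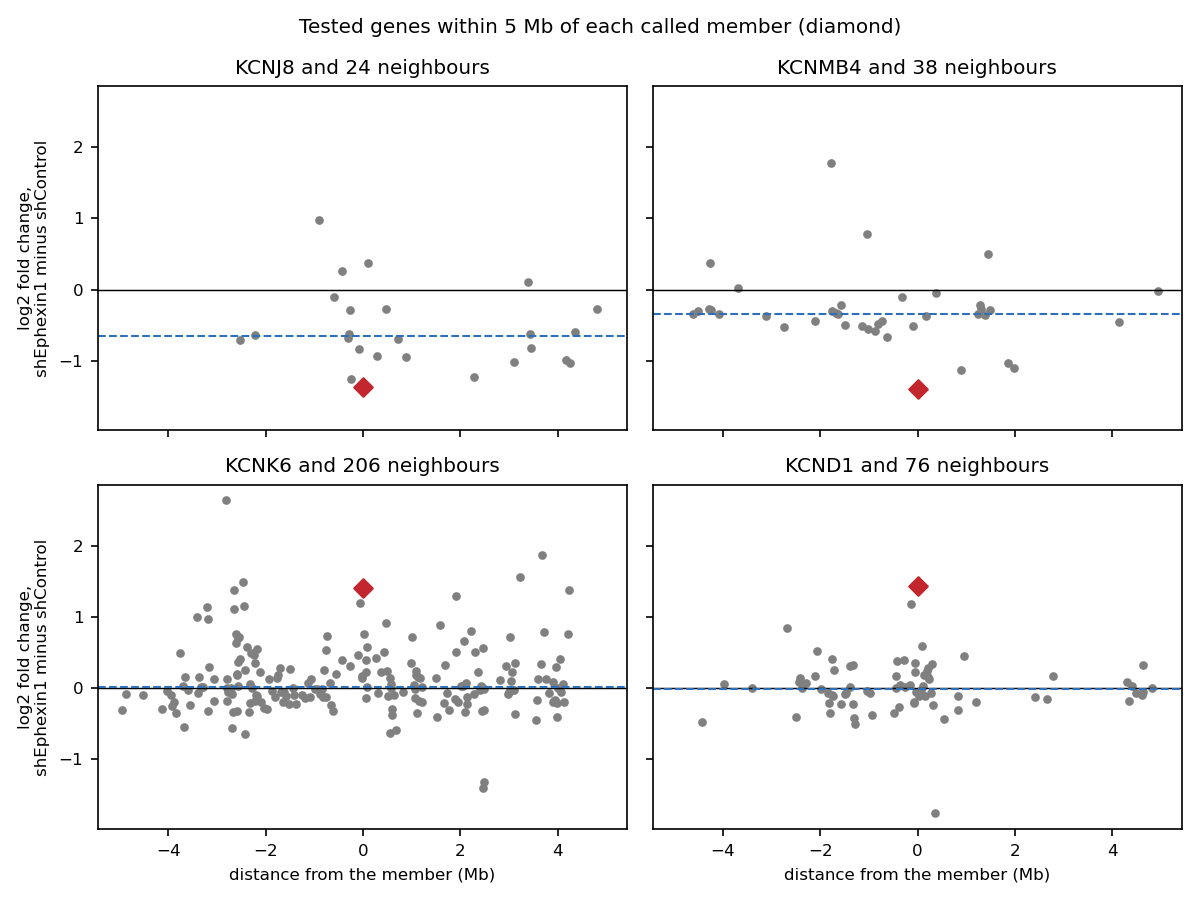
Log2 fold change, shEphexin1 minus shControl, of the tested genes within 5 Mb of each called potassium channel gene against distance in Mb, with the member as a diamond, neighbours as grey points and their median as a dashed line. The medians are -0.66 around KCNJ8, -0.34 around KCNMB4, 0.019 around KCNK6 and -0.0058 around KCND1.

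Genes that move potassium by other routes were taken as fixed lists. Of 23 subunits and modulators of potassium pumps and cation-chloride cotransporters, 13 passed the filter, 11 of them above 0 and 2 below on the log2 scale, with a median of 0.19 beside -0.0093 over all genes tested. Among the 13 is FXYD6, which reached 0.1 FPKM in the shEphexin1 libraries alone, so its place above 0 followed from the filter. SLC12A4, a potassium-chloride cotransporter, was at 7.93 to 11.2 FPKM and 14.1 to 22.4 FPKM and was not called (0.91, adjusted p = 0.0472). Of 27 HCN, sodium and calcium channel genes 9 passed, none was called, and their median log2 fold change was 0.41. CACNA1B (adjusted p = 0.0378) and SCN2A (adjusted p = 0.0548), pore subunits of calcium and sodium channels, were higher in every shEphexin1 library without being called. Of these 9 genes 3 did not overlap on the higher side and 1 on the lower side, beside 12.8% and 15.4% of all genes tested. Of 9 partner subunits not named KCN, 3 passed and none was called.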

How the data were processed

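RNA-seq was read from 6 libraries of NCI-H1299 cells. Per the labels and the study's methods, total RNA was extracted with TRIzol and libraries were made with a stranded total RNA kit. According to the labels and the submitters' processing notes, the authors used bcl2fastq 2.20, TopHat2 2.0.13 with Bowtie on GRCh37 (hg19), and Cufflinks 2.2.1. The deposited values are FPKM per gene, geometrically normalized by the authors per the methods. The gene annotation and strand setting are not given in the sources used here. Low values did not fall on whole multiples, so read counts and depth are unknown and no counting interval is given.

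The 16020 of 26255 rows that reached 0.1 FPKM in 3 or more of the 6 libraries were fitted on log2(FPKM + 0.1) with limma 3.58.1 (R 4.3.3), using lmFit and a trended eBayes, and p-values were adjusted over all of them by the Benjamini-Hochberg method. Calls needed an adjusted p of at most 0.025 and 2-fold, the study's thresholds. The fit was tested on simulated data whose changes were larger than those of the called genes and whose noise was independent between libraries. That simulation does not show how well changes of the size seen here are found. Positions and neighbours came from GENCODE release 44 lifted to GRCh37, which held 94 of the 95 members. Named were KCNJ8, the called genes, those with an unadjusted p of at most 0.05, the 10 with the highest mean, and 3 on either side of the filter; a few genes of these lists are not reported here. The members and lists were chosen with earlier results of these data known. Alternatives covered the pseudocount, filter, scaling, variance model, call rule, replicate block, batch term, libraries left out and neighbourhood, and a GC and length correction chosen after seeing the data.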

Additional observations from a re-analysis of the deposited data

How the results depend on the processing

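The same 2 higher and 2 lower members were called with a pseudocount of 0.01 FPKM, no filter, a 1 FPKM filter, median centring, quantile normalization, robust eBayes, the batch term, the GC and length correction (chosen after seeing the data), an adjusted p of at most 0.05 and no fold threshold. Replicates 1 and 3 alone added KCNK4 to them, giving 3 higher and 2 lower. With a pseudocount of 1 FPKM 1 was called higher (KCNK6) and 0 lower, and without an intensity trend 1 was called higher (KCND1). Leaving out 1 library at a time gave 0 to 2 higher and 0 to 2 lower. A filter of 1 FPKM left 19 members in place of 46. No called member changed sign. Over all genes, calls ranged from 23 to 312 higher and 37 to 252 lower, beside 143 and 160. Among the tested members named by the rule the sign turned for KCNG3 (0.05) under quantile normalization (-0.0053) and without shControl replicate 3 (-0.10), KCNMB3 (0.06) under quantile normalization (-0.0044) and without shEphexin1 replicate 2 (-0.011), and KCNH3 (-0.09) with replicates 1 and 3 alone (0.029), without shControl replicate 3 (0.050), without shEphexin1 replicate 2 (0.21) and after subtraction of the neighbours' median (0.13). Over the single libraries left out they spanned -0.10 to 0.15 (KCNG3), -0.011 to 0.16 (KCNMB3) and -0.28 to 0.21 (KCNH3). Members that the rule did not name turned sign too, such as KCNH5 (-0.14, and 0.064 with replicates 1 and 3 alone). The cause was not tested.

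The replicate numbers were not used as pairs in the main fit. Same-numbered libraries deviated together with r of 0.0914, 0.430 and 0.328 for replicates 1, 2 and 3, and each library correlated best with its own number. For shEphexin1 replicate 1 the margin was slight, with r of 0.0887 to shControl replicate 3. Any effect shared by a number therefore stayed in the error of the main fit. With the replicate block 2 members were called higher and 2 lower, the same genes, also with the GC and length correction added. Over all genes the block gave 309 calls higher and 247 lower, beside 143 and 160 in the main fit. The depth is unknown, and 23 of the 42 uncalled members had intervals that reached past a 2-fold change.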
